A study of Mus musculus with 2 samples.

Results

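The *Cyp4* genes described here are 10 members of the cytochrome P450 family that hydroxylates fatty acids, chosen by gene symbol from the 34745 genes listed for the livers of miR-182-5p KO and wild-type (WT) mice. They are *Cyp4a10*, *Cyp4a12a*, *Cyp4a12b*, *Cyp4a14*, *Cyp4a31*, *Cyp4a32*, *Cyp4f13*, *Cyp4f14*, *Cyp4f15* and *Cyp4v3*, and all 10 passed the filter of at least 10 counts over both libraries, which 13561 genes passed in all. The KO mice were heterozygous for the loss of miR-182-5p in every tissue, so that 1 allele remained, and the WT mice carried both. All were males of 8 to 10 weeks that had undergone 2/3 partial hepatectomy (PH), the KO and the WT mice alike, and the livers were taken 3 days later. Each genotype was sequenced as 1 poly(A) RNA library, and the number of mice behind a library is not given in the sources used here. There is thus no replicate error and no test between genotypes: a difference below compares 2 libraries, and each interval is an exact 95% interval that covers counting error only.

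CYP4 enzymes are haem proteins of the endoplasmic reticulum that place a hydroxyl group at or next to the methyl end of a fatty acid, the omega position, with electrons passed on by cytochrome P450 reductase. Alcohol and aldehyde dehydrogenases then turn the product into a dicarboxylic acid, which peroxisomes shorten. In mouse liver *Cyp4a10* and *Cyp4a14* are classical targets of the fatty acid receptor PPARα, *Cyp4a12a* is a male-predominant gene under control of androgen and growth hormone, and CYP4F enzymes inactivate leukotrienes and other eicosanoids.

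The sequences are shown first because the members differ in how far reads can tell them apart. All 10 coding sequences held the haem-binding motif of P450 enzymes, with a cysteine whose sulfur binds the haem iron, once each. The 42 bases around that cysteine codon were read from the GENCODE M21 transcripts (GRCm38), within the exon that holds it. Capitals mark the cysteine codon.
Cyp4a10, chr4:115532531-115532572, + strand: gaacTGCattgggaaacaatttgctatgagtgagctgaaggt
Cyp4a31, chr4:115577936-115577977, + strand: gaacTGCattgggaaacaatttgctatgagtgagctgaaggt
Cyp4a32, chr4:115621434-115621475, + strand: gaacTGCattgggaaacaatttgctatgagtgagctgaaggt
Cyp4a12a, chr4:115331834-115331875, + strand: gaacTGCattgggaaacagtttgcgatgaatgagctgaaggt
Cyp4a12b, chr4:115438057-115438098, + strand: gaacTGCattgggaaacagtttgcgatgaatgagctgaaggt
Cyp4a14, chr4:115487270-115487311, - strand: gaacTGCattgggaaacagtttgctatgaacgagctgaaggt
Cyp4f13, chr17:32924913-32924954, - strand: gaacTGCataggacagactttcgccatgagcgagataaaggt
Cyp4f14, chr17:32905637-32905678, - strand: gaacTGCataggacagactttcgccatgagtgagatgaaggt
Cyp4f15, chr17:32702789-32702830, + strand: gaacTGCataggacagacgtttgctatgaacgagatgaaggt
Cyp4v3, chr8:45308380-45308421, - strand: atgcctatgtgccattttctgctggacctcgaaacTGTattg
The window was identical in *Cyp4a10*, *Cyp4a31* and *Cyp4a32* and identical in *Cyp4a12a* and *Cyp4a12b*, and it differed in each of the other 5 genes. The exon began 4 bases before the codon in all *Cyp4a* and *Cyp4f* members, whereas in *Cyp4v3* the exon ended 4 bases after it.

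Elsewhere the near-identical genes can be separated. Within a single exon, *Cyp4a10*, *Cyp4a31* and *Cyp4a32* differed most over the 60-base coding window at positions 200 to 259. Positions are counted from the start codon, and capitals mark the 9 at which the 3 genes are not all the same. Most of these set only *Cyp4a32* apart, and few separate *Cyp4a10* from *Cyp4a31*.
Cyp4a10, chr4:115519640-115519699, + strand: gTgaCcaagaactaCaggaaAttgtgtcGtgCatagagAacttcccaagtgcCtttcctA
Cyp4a31, chr4:115565020-115565079, + strand: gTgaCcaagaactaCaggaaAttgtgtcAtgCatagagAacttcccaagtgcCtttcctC
Cyp4a32, chr4:115602270-115602329, + strand: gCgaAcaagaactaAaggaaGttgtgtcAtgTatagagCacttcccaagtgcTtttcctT
For the *Cyp4a12* pair the window lay at coding positions 630 to 689 and held 4 differing positions, again in capitals.
Cyp4a12a, chr4:115326628-115326687, + strand: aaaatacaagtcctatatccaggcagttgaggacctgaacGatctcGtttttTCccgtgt
Cyp4a12b, chr4:115432881-115432940, + strand: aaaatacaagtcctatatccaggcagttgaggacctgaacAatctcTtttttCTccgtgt

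Over the whole coding sequence *Cyp4a12a* and *Cyp4a12b* were 98.7% identical, with 20 differing bases. *Cyp4a10* was 96.6% identical to *Cyp4a31* and 97.2% to *Cyp4a32*, and *Cyp4a31* and *Cyp4a32* were 96.0% identical. *Cyp4a14* stood apart, with at most 80.1% identity to another *Cyp4a* member, and the *Cyp4f* members were 80.4% to 82.9% identical to each other. As a measure of how many reads could fall on more than 1 gene, 48.4% of the 51-base words of *Cyp4a12a*, 48.9% of *Cyp4a12b*, 45.8% of *Cyp4a32*, 29.9% of *Cyp4a10* and 21.3% of *Cyp4a31* occurred in another gene's transcripts, against 0.204% for *Cyp4a14*. The split of counts within these near-identical genes is therefore uncertain, and their summed counts are given below beside the single values. *Cyp4v3* shared 7.00% of its words with another gene model and overlapped *Klkb1*, a plasma kallikrein gene on the same strand.

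The KO library held 13247497 counts and the WT library 13163348. Of these, 51.7% in KO and 31.0% in WT fell on the 13 mitochondrially encoded mRNAs. Library sizes were therefore scaled by the trimmed mean of M-values (TMM), and scaled CPM (counts for each 1000000 of the scaled library size) below are on that scale. With total counts as library size instead, the median over all genes moved from 0.00 to -0.60 (log2 fold change), and the values below move down by about as much. *Mir182* was not among the listed genes, and the labels could therefore not be checked against the targeted gene. Of the 7 hepatocyte markers listed, none differed by 2-fold or more, and their median log2 fold change was 0.05. With total counts 1 was lower by 2-fold, against 26.6% of all genes, and the median was -0.55.

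A 2-fold difference was reached by 3 members that were lower in KO, *Cyp4a14*, *Cyp4a31* and *Cyp4a10*, and by 1 that was higher, *Cyp4f13*. Of all genes tested, 9.94% were lower and 9.46% higher by this rule, so that a single higher member of 10 lies near the background. *Cyp4a31* and *Cyp4a10* are near-copies, and with near-identical genes counted once 2 were lower. With total counts 26.6% of all genes were lower and 4.60% higher, 4 members were lower, with *Cyp4a32* added, and none was higher. The median log2 fold change of the 10 members was 0.05, against 0.00 over all genes. On the TMM scale the middle of the family thus lay near that of all genes, while single members ranged from -3.44 to 1.06.

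*Cyp4a14*, *Cyp4a10* and the near-copies of *Cyp4a10* had the lowest values of the family. *Cyp4a14* had 121 counts in KO and 1985 in WT, or 11.3 and 122 scaled CPM. The log2 fold change, KO over WT, was -3.44 (interval -3.72 to -3.18), a 10.8-fold lower level, and 1.50% of all tested genes lay as low or lower. Few reads of this gene could stem from a relative, as shown by the shared words above. *Cyp4a10*, the most abundant member in WT, had 624 counts in KO and 2699 in WT, or 58.0 and 167 scaled CPM. Its log2 fold change was -1.52 (-1.65 to -1.39), 2.87-fold lower, and 5.05% of tested genes lay as low or lower. *Cyp4a31*, a near-copy of *Cyp4a10*, had 39 counts in KO and 397 in WT, with a log2 fold change of -2.74 (-3.27 to -2.28). *Cyp4a32*, the other near-copy, had 97 and 242 counts and a log2 fold change of -0.72 (-1.08 to -0.38), which is under 2-fold. Summed over *Cyp4a10*, *Cyp4a31* and *Cyp4a32*, the counts were 760 in KO and 3338 in WT, a log2 fold change of -1.54 (-1.66 to -1.43) that does not depend on how reads were divided among the copies.

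The single values of the copies nevertheless differed from each other beyond counting error. The log2 fold change of *Cyp4a31* was lower than that of *Cyp4a32* by -2.03 (-2.65 to -1.42), and that of *Cyp4a10* exceeded that of *Cyp4a31* by 1.23 (0.74 to 1.76). *Cyp4a14* lay below *Cyp4a10* by 1.92 on the log2 scale (1.63 to 2.23). Differences between members do not depend on the scaling of the libraries.

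The *Cyp4a12* pair did not share the low values of its neighbours. *Cyp4a12a*, the male-predominant arachidonic acid and fatty acid hydroxylase, had 1104 counts in KO and 1063 in WT, or 103 and 65.6 scaled CPM. The log2 fold change was 0.65 (0.52 to 0.77), and 0.05 with total counts. *Cyp4a12b* had 446 and 678 counts, nearly equal on the scaled CPM at 41.5 and 41.8, with a log2 fold change of -0.01 (-0.19 to 0.16), and -0.61 with total counts. The pair summed gave 0.42 (0.32 to 0.52), a sign that turned to -0.18 with total counts. Of the counts on the pair, *Cyp4a12b* took 28.8% (26.5% to 31.1%, Clopper-Pearson) in KO and 38.9% (36.6% to 41.3%) in WT. Set against *Cyp4a14*, the log2 fold change of *Cyp4a12a* was higher by 4.09 (3.80 to 4.39). In counts, there were 9.12 reads on *Cyp4a12a* for each on *Cyp4a14* in KO and 0.536 in WT, so the order of these genes was opposite in the 2 libraries.

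The *Cyp4f* members and *Cyp4v3* lay close to the median of all genes or above it. *Cyp4f14*, the mouse leukotriene B4 and vitamin E omega-hydroxylase, had 908 counts in KO and 1268 in WT, with a log2 fold change of 0.11 (-0.01 to 0.23). *Cyp4f15*, a relative of the leukotriene hydroxylases, had 1651 and 1920 counts and a log2 fold change of 0.37 (0.28 to 0.47). *Cyp4v3*, the mouse counterpart of the human gene mutated in Bietti crystalline dystrophy of the retina, had 2058 and 2476 counts and a log2 fold change of 0.33 (0.24 to 0.41). With total counts these 3 values turned negative, at -0.49, -0.23 and -0.28. *Cyp4f13*, another CYP4F hydroxylase, was with *Cyp4a12a* 1 of 2 members with a larger raw count in KO, 627 against 454. Its log2 fold change was 1.06 (0.88 to 1.24), 2.08-fold higher, with an interval that reached below 2-fold. It was 0.46 with total counts and 0.97 with total counts that left out the mitochondrial genes. Against its neighbour *Cyp4f14*, the log2 fold change of *Cyp4f13* was higher by 0.95 (0.73 to 1.16) whatever the scaling.

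**Figure D1:**
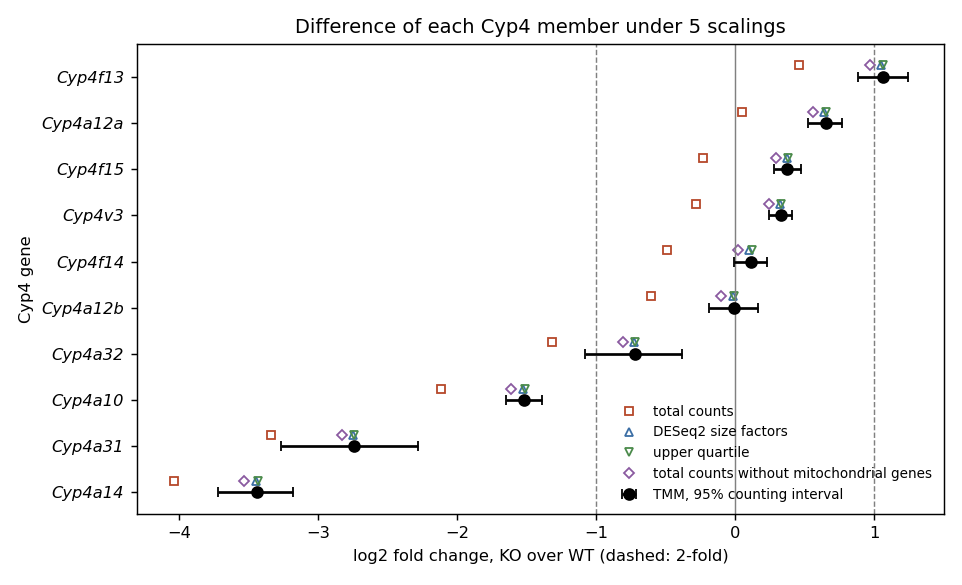
Log2 fold change, KO over WT, of each *Cyp4* member. Black points are TMM values with exact 95% counting intervals, and open symbols are 4 other scalings of the same counts. *Cyp4a14*, *Cyp4a31* and *Cyp4a10* lie below the lower dashed 2-fold line under each scaling shown. *Cyp4f13* lies past the upper one under TMM at 1.06 and not with total counts at 0.46.

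Levels between genes are compared per length, as FPKM. In the WT library the order was *Cyp4a10* at 71.7 FPKM, *Cyp4a14* at 52.6, *Cyp4f15* at 48.2, *Cyp4f14* at 36.9, *Cyp4a12a* at 33.3, *Cyp4v3* at 28.7, *Cyp4a12b* at 21.5, *Cyp4a32* at 10.0, *Cyp4f13* at 7.14 and *Cyp4a31* at 6.80. Only the last neighbours, *Cyp4f13* and *Cyp4a31*, did not differ beyond counting error, with a ratio of 1.05 (0.916 to 1.20). In the KO library the order was *Cyp4f15* at 41.2 FPKM, *Cyp4a12a* at 34.4, *Cyp4f14* at 26.3, *Cyp4v3* at 23.7, *Cyp4a10* at 16.5, *Cyp4a12b* at 14.1, *Cyp4f13* at 9.80, *Cyp4a32* at 3.99, *Cyp4a14* at 3.18 and *Cyp4a31* at 0.664. There only *Cyp4a32* and *Cyp4a14* did not differ beyond counting error, with a ratio of 1.25 (0.950 to 1.65). *Cyp4a14* thus held the second place in WT and the ninth in KO, and *Cyp4a10* the first and the fifth.

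The order depends on the gene length used. The deposited FPKM implied a length of 4436 bases for *Cyp4a31* and 6559 for *Cyp4v3*, against 2509 and 3808 bases of exon in GENCODE M21. With the M21 lengths, *Cyp4v3* came to 49.4 FPKM and place 4 in WT and to 40.8 FPKM and place 2 in KO, and *Cyp4a31* to 12.0 FPKM and place 8 in WT. *Cyp4a14* came to 58.0 FPKM and place 3 in WT, behind *Cyp4f15* at 63.9 FPKM, and kept place 9 in KO. *Cyp4a10* stayed first in WT, at 97.2 FPKM, and *Cyp4f15* first in KO, at 54.6 FPKM.

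**Figure D2:**
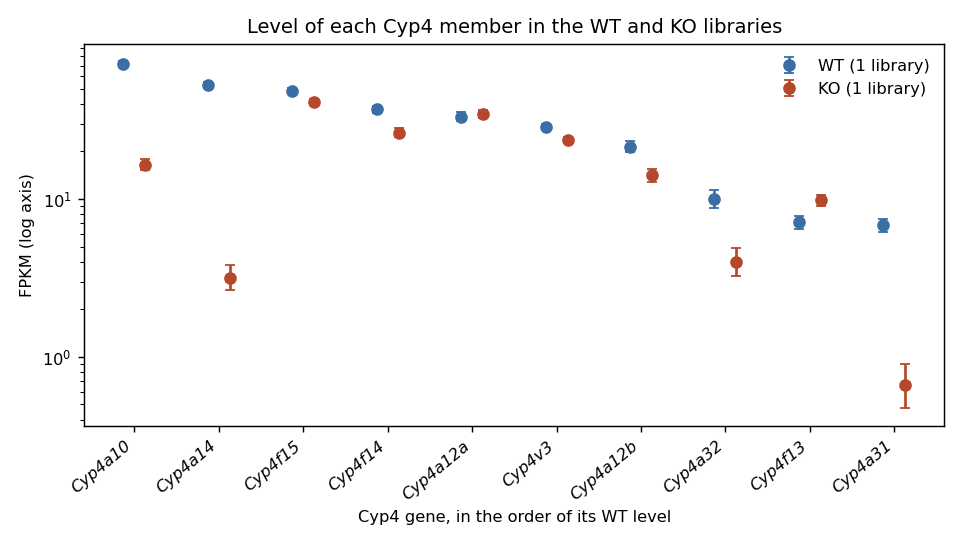
Level of each *Cyp4* member in the WT and KO libraries, in FPKM on a log axis, with members in the order of their WT level. Bars are exact 95% Poisson counting intervals of the 1 library per genotype. The gap is widest for *Cyp4a14*, at 52.6 FPKM in WT and 3.18 in KO, and for *Cyp4a31*, at 6.80 and 0.664.

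The make-up of the family differed between the libraries accordingly. FPKM use the deposited lengths and total counts, of which a larger share was mitochondrial in KO. On this scale the 10 members summed to 174 FPKM in KO and 317 in WT. *Cyp4a10*, *Cyp4a14*, *Cyp4a31* and *Cyp4a32* made up 14.0% of that sum in KO and 44.5% in WT. The *Cyp4f* members made up 44.5% in KO and 29.1% in WT, the *Cyp4a12* pair 27.9% and 17.3%, and *Cyp4v3* 13.6% and 9.05%. As summed counts, those 4 *Cyp4a* genes differed by a log2 fold change of -2.00 (-2.11 to -1.90), and the 3 *Cyp4f* members by 0.40 (0.33 to 0.47), which became -0.20 with total counts. All members together took 7675 counts in KO and 13182 in WT, with a log2 fold change of -0.19 (-0.23 to -0.15), and -0.79 with total counts.

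The *Cyp4a* members sit in 1 cluster on chromosome 4. *Cyp4a12a* (chr4:115299046-115332815) and *Cyp4a12b* (chr4:115411624-115439034) come first, followed by *Cyp4a14* (chr4:115486200-115496142), *Cyp4a10* (chr4:115518264-115533649), *Cyp4a31* (chr4:115563649-115579015) and *Cyp4a32* (chr4:115600969-115621602), in GRCm38 coordinates. The last 4 of these span 135 kb, within which 6 genes are listed. The other 2 are the pseudogenes *Cyp4b1-ps1* and *Cyp4b1-ps2*, without a count in either library. All 4 expressed genes of this stretch had negative log2 fold changes under every scaling used, 3 of them past 2-fold. Of the nearest expressed genes on its sides, *Cyp4a12b*, 47.2 kb before it, was at -0.01, and at -0.61 with total counts, while *Cyp4a32* was at -0.72 and -1.32. *Cyp4b1*, 3.12 kb after it, had 43 counts in KO and 39 in WT, a log2 fold change of 0.72 (0.07 to 1.40). On the cluster's flanks of 500 kb, 16 genes outside the family passed the filter. Of these, 1 was higher and 3 were lower by 2-fold or more, against 9.46% and 9.94% of all genes. Their median was -0.29.

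The *Cyp4f* members lie on chromosome 17, *Cyp4f15* at chr17:32685627-32703352, *Cyp4f14* at chr17:32905071-32917342 and *Cyp4f13* at chr17:32924688-32947402. On their flanks 19 genes outside the family passed the filter. Of these, 3 were higher and 1 was lower, against 9.46% and 9.94% of all genes, with a median of 0.29. *Cyp4v3* is alone on chromosome 8, at chr8:45269671-45333216.

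**Figure D3:**
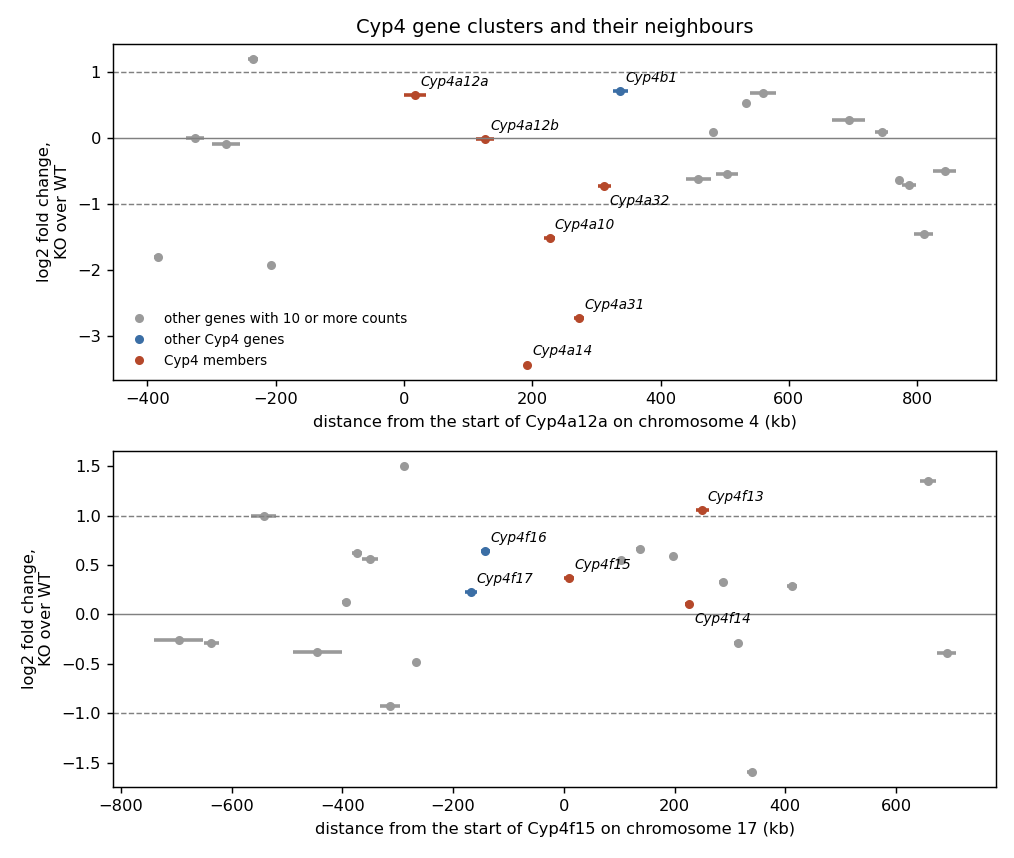
Log2 fold change, KO over WT, of genes with at least 10 counts against their distance in kb from the start of *Cyp4a12a* on chromosome 4 (top) and of *Cyp4f15* on chromosome 17 (bottom). Horizontal bars mark each gene's length, red points the members, blue points other *Cyp4* genes and grey points other genes. *Cyp4a14*, *Cyp4a10*, *Cyp4a31* and *Cyp4a32* follow each other at -3.44, -1.52, -2.74 and -0.72, between *Cyp4a12b* at -0.01 and *Cyp4b1* at 0.72.

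A further 17 *Cyp4* genes and pseudogenes were listed, of which 12 had no count in either library and 4 passed the filter. None of the 4 reached a 2-fold difference. *Cyp4b1* is given above. *Cyp4f17* had 60 counts in KO and 77 in WT (log2 fold change 0.23, -0.28 to 0.74), and *Cyp4f16* had 61 and 59 (0.64, 0.10 to 1.18), with 26.0% of its words shared with other genes. *Cyp4f18*, known as the leukotriene hydroxylase of neutrophils, had 7 and 19 counts and a log2 fold change of -0.81 (-2.34 to 0.46), so that no difference was detectable at this depth. Of the neutrophil markers, *Ly6g* was at 0 in both libraries. *S100a8* had 142 counts in KO and 214 in WT, *S100a9* 189 and 256, and *Csf3r* 118 and 116. The list summed to 457 counts in KO and 600 in WT. Its 4 tested markers had a median of 0.36, and -0.23 with total counts.

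A microRNA lowers the level of transcripts that hold a match to its seed, bases 2 to 8, in their 3′ UTR. The mature miR-182-5p is shown with its seed in capitals, as given by RefSeq (GRCm38.p6).
miR-182-5p, chr6:30165962-30165986, - strand: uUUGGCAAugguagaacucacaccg
The 7-base match, TTGCCAA, was searched on the transcript strand of each gene's longest coding transcript in GENCODE M21. No member held it in the 3′ UTR of that transcript, and that of *Cyp4a32* has none annotated. The other searched lengths ran from 89 bases in *Cyp4f13* to 1992 in *Cyp4v3*. Other transcripts of these genes were not searched. Of 20598 genes whose longest coding transcript has a 3′ UTR of at least 8 bases, 9.84% held the match there. This says only that these letters were not in these windows.

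The electron donors of microsomal P450 enzymes had values below 0, none past 2-fold on the TMM scale. With total counts 2 of 4 were lower by 2-fold, against 26.6% of all genes. *Por*, the cytochrome P450 reductase, had 1200 counts in KO and 2803 in WT, a log2 fold change of -0.63 (-0.73 to -0.53). *Cyb5a*, cytochrome b5, had 5627 and 10538 counts and a log2 fold change of -0.31 (-0.36 to -0.27). All 4 genes of this list were below 0, with a median of -0.43.

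The receptor itself was not lower in KO on either scale. *Ppara* had 61 counts in KO and 60 in WT, a log2 fold change of 0.61 (0.08 to 1.15), and 0.01 with total counts. *Rxra*, its dimerisation partner, had 1721 and 2325 counts and a log2 fold change of 0.16 (0.07 to 0.25), and -0.44 with total counts. Of 12 genes of the receptor and its partners, 1 was higher and 1 was lower by 2-fold, against 9.46% and 9.94% of all genes. The higher gene was *Lpin1*, a phosphatidate phosphatase and co-activator, with 348 and 52 counts and a log2 fold change of 3.32 (2.91 to 3.78). The lower gene was *Pparg*, the related receptor of fat cells, with 24 and 81 counts and -1.15 (-1.88 to -0.49).

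Among 31 tested PPARα targets outside the *Cyp4* family, 8 were lower by 2-fold or more and none was higher, against 9.94% and 9.46% of all genes, and their median log2 fold change was -0.25. The list was chosen with earlier results of these data known, and it does not hold *Acsl1*. That gene was at 1.67 (691 counts in KO and 327 in WT), and at 1.07 with total counts. It is in the KEGG list below, which held 4 higher and 9 lower genes. With total counts 12 of the 31 targets were lower, against 26.6% of all genes. The low values included *Ehhadh*, the peroxisomal bifunctional enzyme, with 346 counts in KO and 1532 in WT and a log2 fold change of -1.55 (-1.73 to -1.39). *Pdk4*, which restrains glucose oxidation, had 15 and 221 counts (-3.25, -4.15 to -2.54), and *Cd36*, a fatty acid transporter, had 37 and 320 (-2.51, -3.05 to -2.03). *Hadhb*, a subunit of the mitochondrial trifunctional protein, had 7 and 291 counts (-4.71), with 62.2% of its words shared with other genes, and *Acot1*, an acyl-CoA thioesterase, had 15 and 122 (-2.40), with 32.9% shared. Without the genes that share over 10% of their words, 4 targets remained lower and the median was -0.14.

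Another established target lay near 0. *Cpt1a*, the gate of mitochondrial fatty acid uptake, had 1090 counts in KO and 1331 in WT and a log2 fold change of 0.30 (0.19 to 0.42). With total counts its value was -0.30. The targets ranged from -4.71 to 0.35. The KEGG list of PPAR signaling genes outside the family, with 58 tested, held 4 higher and 9 lower genes at a median of -0.21, against the same shares over all genes of 9.46% and 9.94%. Its lowest value was that of *Fabp7*, a fatty acid binding protein, at -6.58. With 0 counts in KO and 57 in WT, this value depends on the prior count. Among its genes with at least 100 counts in the higher library, the largest difference ran the other way from the low targets. This was *Acox3*, a peroxisomal oxidase of branched-chain acyl-CoA, with 199 counts in KO and 16 in WT (4.18, 3.49 to 5.06). *Scd2*, a fatty acid desaturase, had 31 and 279 (-2.56, -3.16 to -2.04).

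Of 20 genes that act on the products of omega-oxidation, 2 were higher and 4 were lower, against 9.46% and 9.94% of all genes, with a median of -0.35. With total counts 1 was higher and 7 were lower, where 4.60% and 26.6% of all genes were. *Aldh3a2*, the fatty aldehyde dehydrogenase, had 554 counts in KO and 1178 in WT (-0.50, -0.64 to -0.35), and *Adh1*, alcohol dehydrogenase, had 11589 and 29270 (-0.74, -0.78 to -0.71). *Abcd3*, the peroxisomal importer of dicarboxylic acyl-CoA, had 1214 and 2376 (-0.38, -0.48 to -0.28). The 2-fold differences were *Crat*, carnitine acetyltransferase, at -3.20 (49 and 684 counts), *Ehhadh* as above, *Abcd2*, a peroxisomal transporter, at -1.28 (37 and 136), *Acsl5*, an acyl-CoA synthetase, at -1.23 (970 and 3442), and, in the other direction, *Acsl1*, the main hepatic acyl-CoA synthetase, at 1.67 (691 and 327) and *Adh7* at 1.37 (78 and 45). Of these, *Acsl5* and *Adh7* fell outside the naming rule and were chosen after their values were seen.

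Tested enzymes of eicosanoid metabolism, which share substrates with CYP4A and CYP4F, numbered 17. Of these, 1 was higher and 3 were lower, against 9.46% and 9.94% of all genes, with a median of -0.17. With total counts none was higher and 6 were lower, against 4.60% and 26.6% of all genes. *Cyp2j9*, an epoxygenase, had 370 counts in KO and 224 in WT (1.31, 1.07 to 1.56). *Ptgr1*, which reduces prostaglandins and leukotriene B4, had 114 and 598 (-1.80, -2.10 to -1.51), and *Ptges3*, a co-chaperone also named as a prostaglandin E synthase, had 9 and 1288 (-6.51), with 22.2% of its words shared with other genes.

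*Cyp4a12a* is male-biased, so the other male-biased liver genes were listed beside it. Of 12 tested, 6 were higher and none was lower by 2-fold, against 9.46% and 9.94% of all genes, with a median log2 fold change of 1.08. With total counts 3 were higher, against 4.60% of all genes, and the median was 0.49. *Hsd3b5*, a steroid dehydrogenase, had 420 counts in KO and 103 in WT (2.61, 2.31 to 2.95), *Cyp7b1*, an oxysterol hydroxylase, had 1196 and 559 (1.69, 1.54 to 1.84), *Ugt2b38*, a glucuronosyltransferase, had 117 and 70 (1.33, 0.89 to 1.78), and *Slco1a1*, an organic anion transporter, had 609 and 387 (1.25, 1.06 to 1.43). *Hsd3b5* and *Ugt2b38* shared 20.7% and 36.8% of their words with other genes. *Cyp4a12a* at 0.65 lay below the median of this list. Of the 14 female-biased genes only 3 passed the filter, with 71 counts for the whole list in KO and 143 in WT.

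Of 9 genes of the growth hormone axis, 3 were higher and 1 was lower, against 9.46% and 9.94% of all genes. The numbers were the same with total counts, against 4.60% and 26.6% of all genes. The median was 0.58, and -0.02 with total counts. *Cish*, a feedback inhibitor of the pathway, had 102 counts in KO and 33 in WT (2.20, 1.64 to 2.83), *Socs2*, another such inhibitor, had 315 and 137 (1.79, 1.50 to 2.09), and *Bcl6*, a repressor of female-biased genes, had 219 and 705 (-1.09, -1.32 to -0.87). *Cish* and *Socs2* shared 15.7% and 18.2% of their words with other genes. A circadian list held the PAR bZIP transcription factors *Dbp*, *Hlf* and *Tef*, which act on liver P450 genes, and *Nfil3*, from outside that group. Of these 4 genes 1 was higher, against 9.46% of all genes. This was *Dbp*, with 462 and 62 counts and a log2 fold change of 3.48 (3.10 to 3.90). It shared 27.5% of its words with other genes.

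**Figure D4:**
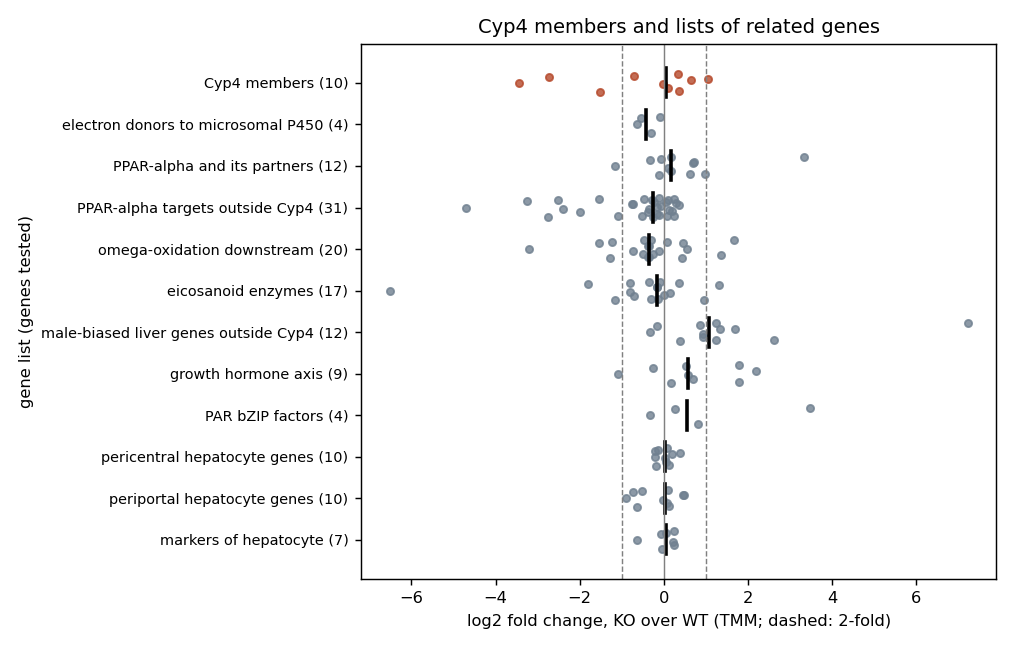
Log2 fold change, KO over WT on the TMM scale, of every tested gene of the *Cyp4* members and of related gene lists, with the number tested in brackets. Each point is a gene, black bars are list medians and dashed lines mark 2-fold. The row of PAR bZIP factors also holds *Nfil3*. The members spread from -3.44 to 1.06 around a median of 0.05, the PPARα targets lie at a median of -0.25 and the male-biased genes at 1.08. The point at the far right is *Moxd1*, with 59 counts in KO and 0 in WT, whose plotted value depends on the prior count.

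The position of hepatocytes in the lobule and the mixture of cells are given as measured values. The pericentral and the periportal lists, 10 genes each, held no gene past 2-fold on the TMM scale, and both medians were 0.03. With total counts the medians were -0.56 and -0.58. No pericentral and 4 periportal genes were then lower by 2-fold, against 26.6% of all genes. Summed counts were 1338 in KO and 2984 in WT for 7 stellate cell markers, 1115 and 2263 for 7 Kupffer cell and macrophage markers, 766 and 1440 for 7 endothelial markers and 1761 and 2032 for 6 cholangiocyte markers. The medians of the first 3 of these lists were -0.52, -0.29 and -0.47, and that of the cholangiocyte list was 0.40, and -0.20 with total counts. *Spp1* held 1638 and 1875 of the cholangiocyte counts. Of the 5 tested cholangiocyte markers 2 were higher by 2-fold and none was lower, against 9.46% and 9.94% of all genes. These were *Krt19* (26 counts in KO and 7 in WT) and *Krt7* (15 and 6). The 6 kidney tubule markers, for the other organ with high *Cyp4a* levels, had 3 counts in KO and 0 in WT. Of 12 cell cycle genes, 1 was higher and 3 were lower, against 9.46% and 9.94% of all genes, with a median of -0.76. With total counts 10 were lower, against 26.6% of all genes, and with an interval wholly past 2-fold 1 was. *Foxm1*, a mitotic transcription factor, had 112 and 17 counts (3.27), *Cdk1*, the mitotic kinase, had 106 and 540 (-1.75) and *Top2a*, a topoisomerase, had 104 and 374 (-1.25). In bulk liver, fewer cells of a type and less RNA per cell cannot be told apart, and the part of cell mixture and of the mitochondrial share in the *Cyp4* differences was not tested.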

How the data were processed

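Liver RNA was sequenced as 1 library for each genotype. Raw counts of reads on each gene and FPKM derived from them were deposited by the authors. The submitters' processing notes name HISAT2 2.0.4, StringTie, edgeR and the build hg38, although the deposited gene identifiers and coordinates are those of mouse GRCm38. Whether reads shared by several genes were counted, and whether strand was used, is not given in the sources used here. Total depth was 13247497 and 13163348 counts.

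Members were taken by gene symbol. They, the related gene lists and the tests were chosen with earlier results of these data known. Counts were scaled by TMM in edgeR 4.0.16 (R 4.3.3), a gene needed 10 counts in the libraries combined, and log2 fold changes used a prior count of 0.5. A difference was counted at 2-fold or more, with no p-value, since each genotype has 1 library. Intervals of fold changes and shares are exact 95% Clopper-Pearson intervals, those of differences between members are exact conditional odds ratio intervals, and those of levels are exact Poisson intervals (scipy 1.17.1). Coding sequences, exons and 3′ UTRs came from GENCODE M21. Of the listed identifiers, 34344 were found there, and 80.8% of these had the same coordinates. A shared word is a 51-base word of a gene's longest coding transcript that occurs in another gene's transcripts. Identity was counted over aligned coding bases (Biopython 1.88). The mature miRNA came from RefSeq. Promoter and protein sequences were not used here.

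Genes were named by rule: all members, every other *Cyp4* gene with at least 10 counts, 11 core genes of the pathway, and in each list up to 4 genes with the largest difference past 2-fold and at least 100 counts in the higher library. Some genes that this rule names are not reported here. Alternatives were total counts with and without the 13 mitochondrial genes, size factors of DESeq2 1.42.0, the upper quartile, a prior count of 5, log2 of FPKM plus 0.1, minimums of 1 and 50 counts, and stricter call rules. The fold change computation was tested on simulated data. Columns in which the authors' table annotates genes were used only for the KEGG list. Figures were drawn with matplotlib 3.10.9.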

Additional observations from a re-analysis of the deposited data

How the results depend on the processing

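No paired analysis was possible because there was a single library of each genotype, and no replicate could be left out. With total counts and with FPKM (pseudocount 0.1), *Cyp4a10*, *Cyp4a31* and *Cyp4a32* summed gave -2.14 and -2.06, the *Cyp4a12* pair -0.18 in both, the median of the members -0.55 in both, and that of the PPARα targets -0.85 and -0.84. The single higher member, *Cyp4f13*, was not past 2-fold (0 members) with total counts, with or without mitochondrial genes, with FPKM, with an interval wholly past 2-fold, or under a variation between animals set by assumption at 0.2 or 0.4 in the exact test of edgeR. With 0.4 there was 1 lower member instead of 3, *Cyp4a14*, and 1 lower PPARα target instead of 8. Counting near-identical genes once moved the members' median to 0.33 and left 2 lower members instead of 3. Chosen after seeing the data, leaving out genes with shared sequence gave 4 lower and a median of -0.14, and the KEGG list held 4 higher.

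Over all genes, 1283 were higher and 1348 lower. These became 624 and 3605 with total counts, 405 and 2934 with FPKM, 2269 and 2763 at a minimum of 1 count, 656 and 730 at 50 counts, 490 and 424 with an interval wholly past 2-fold, and 488 and 443, or 59 and 58, at an assumed coefficient of variation of 0.2 or 0.4. No member, sum or list median past 2-fold changed sign, and single genes outside these were not followed. Total counts moved the median over all genes from 0.00 to -0.60, less than 2-fold, so such a change was hardly possible. *Cyp4a14*, *Cyp4a31* and *Cyp4a10* stayed past 2-fold under each scaling, filter and prior count tried.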
